A study of Mus musculus with 22 samples.

Results

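The 45 genes described here encode the machinery that folds secreted proteins in the endoplasmic reticulum (ER) and the stress response that watches over it. They were chosen by symbol for their function. There are 7 redox enzymes, 11 chaperones and their cofactors, and 10 parts of the translocation channel and signal peptidase. The others are 6 parts of ER-associated degradation, 5 genes grouped as sensors (Xbp1, Ern1, Atf6, Eif2ak3 and Wfs1), and 6 genes of the integrated stress response. Each symbol matched 1 Ensembl gene, and all 45 are in both count tables, out of 27124 genes at E14.5 and 27504 at P9. A nascent hormone precursor enters the ER through the SEC61 channel, loses its signal peptide to the signal peptidase, is held by chaperones such as BiP (Hspa5) and receives its disulphide bonds from protein disulphide isomerases, which are re-oxidised by the ERO1 enzymes. Proteins that fail to fold are sent back to the cytosol and degraded. When unfolded protein accumulates, IRE1 (Ern1) splices the mRNA of Xbp1, ATF6 is released by cleavage and PERK (Eif2ak3) phosphorylates eIF2α, which favours translation of ATF4; together these raise the folding machinery, and the loss of several of these genes in mice or people harms beta cells.

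RNA-seq libraries were made from 100 FACS-sorted tdTomato+ pancreatic cells each, in 4 groups: 6 control and 5 Isl1CKO libraries at E14.5, and 5 control and 6 Isl1CKO libraries at P9 (the protocol names pups of P9 to P10). Mutants are homozygous for floxed Isl1 and carry Neurod1-Cre (Isl1 f/f; Neurod1-Cre); controls are heterozygous (Isl1 f/+; Neurod1-Cre) in the text of the study and WT in their labels. All groups carry the Cre and the Ai14 tdTomato reporter on a C57BL/6 background and are littermates of either sex. Cre under Neurod1 acts in the endocrine lineages as a whole, so every library pools endocrine cell types, and in such bulk samples fewer cells of a type and less RNA per cell cannot be told apart. Tissue was freed with trypsin at E14.5, with collagenase before trypsin at P9, so age and preparation cannot be told apart. The study calls the libraries biological replicates, but nothing in the labels ties them to separate animals, so p-values measure the spread between these libraries, which may be partly technical.

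Depth was 8477482 to 13580985 counts per library. The 8 islet hormone genes took 51.1 to 56.4% of counts in P9 controls and 14.0 to 30.2% in P9 Isl1CKO, against 2.44 to 6.17% and 0.710 to 2.49% at E14.5, and the mitochondrial share was 1.94 to 2.69% in P9 controls and 2.68 to 3.89% in P9 Isl1CKO. All 6 pan-endocrine markers were present in each group, and their sum was higher in Isl1CKO without overlap at both ages, at 280409 to 324051 scaled counts against 138462 to 203783 at E14.5 and 361659 to 535254 against 121259 to 140007 at P9. The markers did not all rise: 2 of the 6 log2 fold changes were below 0 at E14.5 and 3 at P9. Chgb averaged 12060 in P9 controls and 259473 in P9 Isl1CKO, while Neurod1 averaged 4368 and 4171. Ductal markers summed to 2066 to 2654 in P9 controls and to 2203 to 6477 in P9 Isl1CKO. Levels are given as scaled counts, the counts divided by library size and by a composition factor (TMM) and brought to a common size within each age. Isl1 itself, counted over all exons, was lower in Isl1CKO at E14.5 (8884 to 11551 scaled counts against 12665 to 16811) but higher at P9 (3730 to 10414 against 2998 to 4413), which goes against the P9 label; Isl1CKO below means the libraries labelled so, and the gene count includes any exon that the floxed allele keeps. The glucagon gene Gcg separated the labelled genotypes at both ages, at 1134 to 33242 in Isl1CKO against 80295 to 233231 in controls at E14.5 and 605 to 37471 against 207841 to 843735 at P9. Acinar markers summed to 754 to 12962 scaled counts in P9 controls, with the highest value in control library 3, and to 368 to 2606 in P9 Isl1CKO, with Pnlip at 0. A list of 11 dissociation-related genes summed to 13530 to 21503 in P9 controls and to 4599 to 12716 in P9 Isl1CKO, without overlap. The part of these marker sums in the results was not tested.

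Some promoters of the list carry a known ER stress element, and the sequences are shown here because they mark which members share it. The element ERSE reads CCAAT and CCACG with 9 bases between them, and is the textbook binding site of ATF6 with NF-Y. RefSeq promoters of GRCm38.p6, from 250 bases before to 50 after the start, were at hand for 38 of the 45 genes; Hyou1, Manf, Sec61a1, Ssr2, Sec11c, Derl1 and Atf6 had none. On either strand, 10 of the 38 (26.3%) held an ERSE, where 39 of all 32851 promoters (0.119%) did. Hsp90b1 held a pair of them. Each is printed along the strand on which the element reads forward, with 10 flanking bases and the fixed letters in capitals.
Hspa5, chr2:34772015-34772053, plus strand: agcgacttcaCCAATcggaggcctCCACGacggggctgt
Hsp90b1, chr10:86705628-86705666, minus strand: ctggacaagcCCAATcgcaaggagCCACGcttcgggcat
Hsp90b1, chr10:86705523-86705561, plus strand: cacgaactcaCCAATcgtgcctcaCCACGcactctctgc
Calr, chr8:84847065-84847103, plus strand: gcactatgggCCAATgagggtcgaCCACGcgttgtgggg
Canx, chr11:50325790-50325828, minus strand: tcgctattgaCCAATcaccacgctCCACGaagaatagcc
Pdia6, chr12:17266481-17266519, plus strand: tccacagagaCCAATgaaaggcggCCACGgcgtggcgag
Dnajc3, chr14:118937817-118937855, plus strand: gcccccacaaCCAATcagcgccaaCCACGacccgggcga
Creld2, chr15:88819510-88819548, minus strand: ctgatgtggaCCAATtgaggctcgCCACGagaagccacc
Ero1lb, chr13:12565672-12565710, minus strand: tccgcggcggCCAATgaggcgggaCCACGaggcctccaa
Derl3, chr10:75893232-75893270, minus strand: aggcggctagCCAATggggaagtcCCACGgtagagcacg
Syvn1, chr19:6046522-6046560, plus strand: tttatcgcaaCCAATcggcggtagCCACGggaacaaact

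The related ERSE-II, ATTGG and CCACG with 1 base between them, was in the promoters of Herpud1 and Dnajb11, 2 of 38 (5.26%) against 12 of 32851 (0.0365%). That of Herpud1 lies 52 bases before the start.
Herpud1, chr8:94386367-94386397, plus strand: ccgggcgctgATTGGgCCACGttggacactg
No member promoter held the UPRE letters TGACGTGG, which 222 of 32851 (0.676%) held. The letters of the C/EBP-ATF composite site through which ATF4 acts, TGATGNAA, were in Asns, Chac1, Herpud1 and Trib3, 4 of 38 (10.5%) against 1304 of 32851 (3.97%). ERSE and ERSE-II can share their CCACG, but no member held both.

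For the genes whose transcripts passed a test below, the 250 bases before the start follow, with the letters of any of these motifs in capitals. Ero1lb and Creld2 hold an ERSE, read here on its reverse strand, and Asns holds the composite site 23 bases before the start; Sdf2l1 and Atf4 held none of the 4 motifs in this window.
Ero1lb, chr13:12565633-12565882, plus strand: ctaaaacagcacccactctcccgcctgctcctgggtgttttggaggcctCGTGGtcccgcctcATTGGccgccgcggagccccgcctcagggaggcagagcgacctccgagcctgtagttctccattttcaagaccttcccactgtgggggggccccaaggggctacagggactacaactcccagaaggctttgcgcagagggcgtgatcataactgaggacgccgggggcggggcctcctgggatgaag
Sdf2l1, chr16:17132384-17132633, minus strand: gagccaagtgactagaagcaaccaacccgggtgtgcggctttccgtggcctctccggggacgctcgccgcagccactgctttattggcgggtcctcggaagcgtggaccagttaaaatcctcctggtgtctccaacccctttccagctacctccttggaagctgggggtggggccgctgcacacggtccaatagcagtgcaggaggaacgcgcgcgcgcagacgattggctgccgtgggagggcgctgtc
Creld2, chr15:88819396-88819645, plus strand: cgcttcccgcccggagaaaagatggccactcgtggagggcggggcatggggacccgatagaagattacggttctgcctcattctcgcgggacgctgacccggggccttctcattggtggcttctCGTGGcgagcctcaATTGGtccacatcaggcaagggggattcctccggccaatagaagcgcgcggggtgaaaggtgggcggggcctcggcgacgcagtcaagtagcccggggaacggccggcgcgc
Atf4, chr15:80254934-80255183, plus strand: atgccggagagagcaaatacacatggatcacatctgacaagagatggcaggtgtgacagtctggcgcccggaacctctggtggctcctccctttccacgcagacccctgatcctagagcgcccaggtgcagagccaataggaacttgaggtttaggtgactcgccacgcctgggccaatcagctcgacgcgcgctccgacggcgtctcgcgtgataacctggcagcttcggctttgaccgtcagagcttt
Asns, chr6:7693210-7693459, minus strand: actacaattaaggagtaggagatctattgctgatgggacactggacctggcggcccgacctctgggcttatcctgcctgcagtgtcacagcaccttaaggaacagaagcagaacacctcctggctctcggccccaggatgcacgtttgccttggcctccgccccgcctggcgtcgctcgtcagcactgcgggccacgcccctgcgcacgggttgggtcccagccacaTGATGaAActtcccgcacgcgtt

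In Isl1CKO cells, few of the 45 genes changed at E14.5, and at P9 those that changed were lower. At E14.5 Asns alone rose and none fell, out of 45 tested. At P9 Ero1lb, Sdf2l1, Creld2, Manf and Atf4 fell and none rose, out of 44 tested; Trib3 was too low in counts to be tested. A gene changed where the adjusted p of edgeR's quasi-likelihood test, over all genes tested, was under 0.05. Over all genes, 0.602% of 15960 were called higher and 0.827% lower at E14.5, and 2.66% of 13964 higher and 2.14% lower at P9. At an unadjusted edgeR p under 0.05, 6 members were higher and 1 lower at E14.5, where 5.50% and 5.95% of all genes were, and 4 were higher and 17 lower at P9, where 9.43% and 7.99% were. DESeq2 called 3 members higher and none lower at E14.5, where it called 1.46% and 1.79% of 20088 genes. At P9 DESeq2 called 2 higher, Ern1 and Spcs1, and 12 lower, where it called 4.95% and 4.16% of 18410 genes.

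The members also leaned to one side as a group at P9. Their median log2 fold change was -0.29, with 33 of 44 below 0, where the median of all genes was 0.02 and 48.3% were below 0. At E14.5 the members leaned the other way. Their median was 0.07, with 33 of 45 above 0 and 12 below, where the median of all genes was -0.00 and 50.6% were below 0. The split of calls depended on how libraries were scaled, and the hormone share given above differed between the genotypes. With total counts in place of TMM, 15 members were called higher and 2 lower at P9, where 27.3% and 1.08% of all genes were, and the median of all genes was then 0.68 and that of the members 0.36. Relative to the median of all genes, the members lay lower by 0.31 with TMM and by 0.32 with total counts, on the log2 scale. Ero1lb and Sdf2l1 were called lower under every scaling run. With total counts Creld2, Manf and Atf4 were not called, at -0.25, -0.03 and -0.13 (edgeR adjusted p = 0.431, 0.907 and 0.640).

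**Figure D1:**
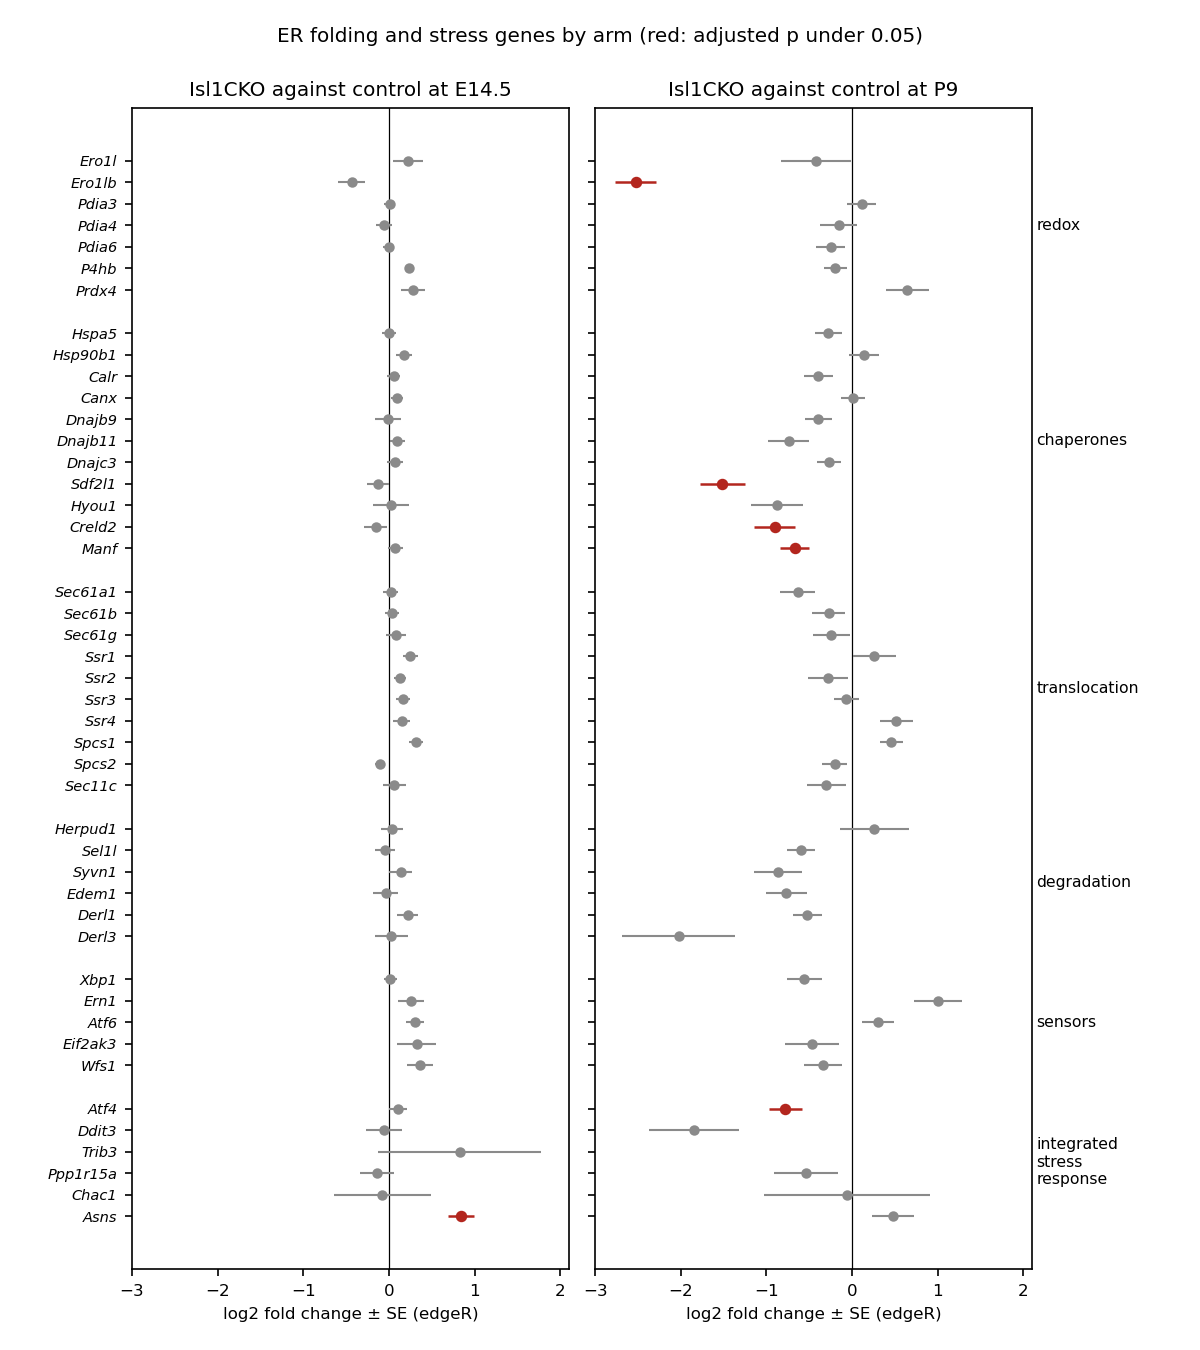
Log2 fold change of Isl1CKO against control for each of the 45 genes, by arm, at E14.5 on the left and P9 on the right; points are edgeR estimates, bars their standard errors, and red marks an adjusted p under 0.05 (Trib3 has no P9 point). At E14.5 most points sit close to 0 and Asns is the 1 red point, at 0.84; at P9 most lie left of 0, and Ero1lb is farthest at -2.53.

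**Figure D2:**
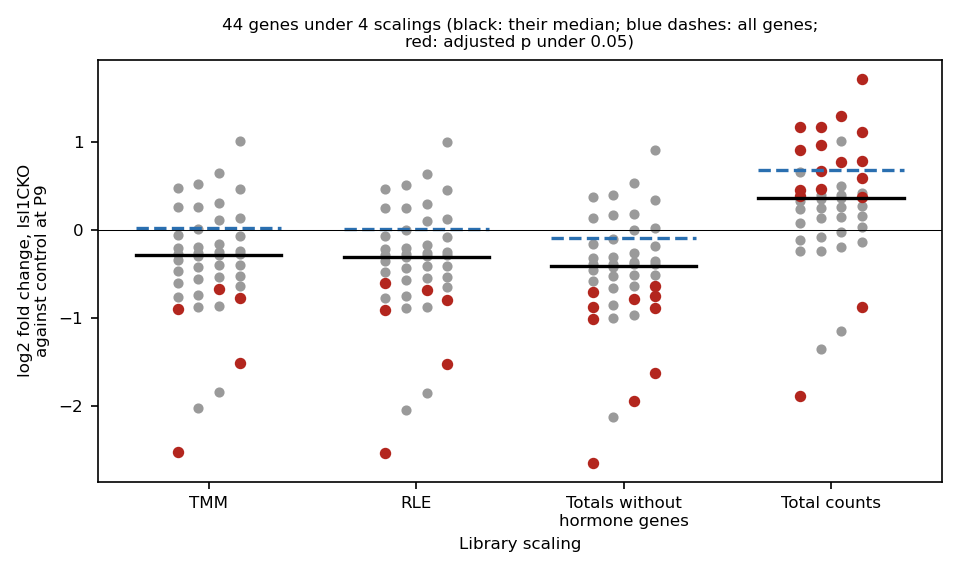
Log2 fold changes of Isl1CKO against control at P9 for the 44 genes tested, under 4 ways of scaling the libraries; black bars are the members' median, blue dashes the median of all genes tested, and red points have an adjusted p under 0.05. Total counts lift the members and all genes together, to medians of 0.36 and 0.68, and Ero1lb and Sdf2l1 are the 2 red points that stay below 0.

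Among the redox enzymes, Ero1lb, the ERO1 form that is abundant in beta cells, fell strongly at P9. Its scaled counts were 6320, 11062, 8209, 8336 and 8653 in the 5 P9 control libraries. In the 6 P9 Isl1CKO libraries they were 1460, 2091, 1586, 1883, 1148 and 697. The highest of the mutants fell well short of the lowest control, and the mean was 5.76-fold lower (log2 fold change -2.53, SE 0.24, adjusted p = 2.94e-05 from edgeR). At E14.5 the scaled counts were 2565, 2859, 3148, 2598, 1716 and 2389 in controls, and 2354, 1412, 2275, 1612 and 1769 in Isl1CKO. These groups overlapped, with a log2 fold change of -0.43 (SE 0.16, edgeR adjusted p = 0.274). The effect differed between the ages: the interaction term was -2.09 (SE 0.30, edgeR adjusted p = 0.000386).

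Ero1l, the widely expressed paralogue of Ero1lb, was also measured, and the ratio of the pair within a library gives a measure that no scaling can move. P9 control libraries held 33.1, 47.0, 62.0, 67.3 and 116 Ero1lb counts for each Ero1l count. P9 Isl1CKO libraries held 22.9, 17.9, 12.5, 31.9, 5.62 and 6.45, all below the lowest control. On the log2 scale the means were 5.90 ± 0.67 (SD, n = 5) and 3.75 ± 1.00 (SD, n = 6), a difference of -2.15, with p = 0.00433 in an exact two-sided permutation test, the smallest that the number of splits allows. At E14.5 the ratios were 7.58, 5.82, 4.23, 4.68, 3.81 and 4.53 in controls and 3.57, 2.76, 4.30, 2.23 and 2.92 in Isl1CKO. There the groups overlapped by 1 Isl1CKO library, and the log2 means of 2.31 ± 0.36 (SD, n = 6) and 1.62 ± 0.36 (SD, n = 5) differed by -0.69 with p = 0.0130 in the exact permutation test; over the 2 tests the adjusted values are 0.0130 and 0.00866. The E14.5 ratio draws on both genes, and neither was called alone. Ero1l had an estimate of 0.22 (SE 0.17, edgeR adjusted p = 0.702) there, beside -0.43 for Ero1lb (edgeR adjusted p = 0.274).

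**Figure D3:**
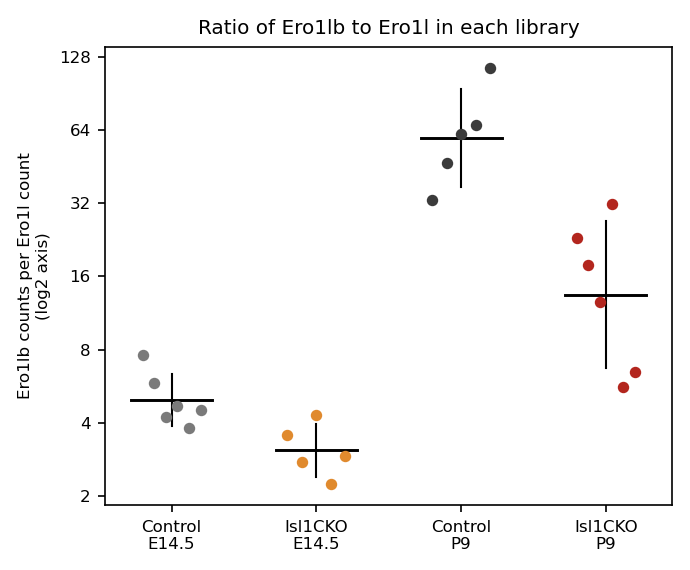
Counts of Ero1lb for each count of Ero1l in each of the 22 libraries, on a log2 axis; horizontal bars are geometric means and vertical lines 1 SD of the log2 ratio. P9 controls lie between 33.1 and 116, and all 6 P9 Isl1CKO libraries between 5.62 and 31.9.

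None of the other 6 redox genes was called at P9 by edgeR with TMM or by DESeq2. Of them, 1, Prdx4, had an unadjusted edgeR p under 0.05. With total counts edgeR called Pdia3, P4hb and Prdx4 higher at P9, where 27.3% of all genes were. Pdia3, which serves glycoproteins, was at 10608 ± 2516 (SD, n = 5) and 11460 ± 2084 (SD, n = 6) at P9. P4hb, the classical protein disulphide isomerase, did not overlap between the genotypes at E14.5 (12695 to 13652 in Isl1CKO against 10326 to 12184), but the log2 difference of 0.24 (SE 0.06) had an edgeR adjusted p = 0.0513, while DESeq2 called it. At P9 Prdx4, an ER peroxidase, had the largest positive estimate of the arm, 0.65 (SE 0.26, edgeR adjusted p = 0.189). Ero1l, Pdia4, Pdia6 and P4hb lay between -0.42 and -0.16 at P9, with edgeR adjusted p of 0.505 to 0.794.

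The chaperone arm held 3 of the 5 genes that fell at P9. Of its 11 genes, 7 were lower at an unadjusted edgeR p under 0.05, where 7.99% of all genes were. DESeq2 called 4 lower, Hyou1 beside the 3 described next, where it called 4.16% of all genes lower. Sdf2l1, a partner of BiP and ERdj3 that keeps misfolded proteins from aggregating, was at 3342, 3857, 1797, 3559 and 2756 scaled counts in P9 controls. In P9 Isl1CKO it was at 1856, 1177, 1041, 837, 533 and 984. Only Isl1CKO library 1 and control library 3, at 1856 and 1797, overlap; the mean was 2.86-fold lower (log2 fold change -1.51, SE 0.27, edgeR adjusted p = 0.00357). At E14.5 Sdf2l1 ran from 2326 to 3374 in the 6 controls (median 2919) and was 3298, 2593, 3000, 2037 and 2240 in Isl1CKO, with an estimate of -0.13 (SE 0.13, edgeR adjusted p = 0.775). The interaction was -1.38 (SE 0.32, edgeR adjusted p = 0.0213), -0.76 with adjusted p = 0.0634 under total counts, and -1.28 with adjusted p = 0.0521 without E14.5 Isl1CKO library 1. Control library 3, the library with the highest acinar sum, held the lowest Sdf2l1 of the controls.

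Manf, a secreted ER stress factor that protects beta cells, also fell at P9 with TMM, beside an estimate of -0.03 with total counts. It was at 8844, 10630, 7580, 11889 and 9712 scaled counts in P9 controls. In P9 Isl1CKO it was at 7667, 7574, 6229, 5707, 3845 and 5641. Only control library 3 lay within the Isl1CKO range, and the log2 fold change was -0.67 (SE 0.17, edgeR adjusted p = 0.0370). At E14.5 the controls ran from 9348 to 11895 (median 10500) and Isl1CKO was 12982, 11844, 12119, 9304 and 10009, with an estimate of 0.07 (SE 0.09, edgeR adjusted p = 0.834). With 1 P9 library left out the adjusted p ran from 0.0273 to 0.0981, and it passed the threshold without control library 3 or without Isl1CKO library 1, 2 or 5.

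Creld2, a secreted ER protein with isomerase activity, was at 1318, 1942, 1317, 2121 and 1472 scaled counts in P9 controls. P9 Isl1CKO libraries ran from 601 to 1579, with a median of 794. Isl1CKO library 1, the highest, lay above 3 of the 5 controls, and the other 5 lay below all of them. Its log2 fold change was -0.90 (SE 0.24, edgeR adjusted p = 0.0445), near the threshold: without Isl1CKO library 1 it was -1.15 with adjusted p = 0.00244, and with any other library left out the adjusted p ran from 0.0545 to 0.113. At E14.5 Creld2 ran from 3850 to 6009 in controls (median 4380) and was 5193, 3510, 4646, 3379 and 3783 in Isl1CKO, with edgeR adjusted p = 0.732.

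Among the other chaperones, Hspa5, the BiP gene, was at 21754 ± 5038 scaled counts (SD, n = 5) in P9 controls and averaged 17961 ± 2543 (SD, n = 6) in P9 Isl1CKO, with an estimate of -0.28 (SE 0.16, edgeR adjusted p = 0.420). At E14.5 it was 40311 ± 4405 (SD, n = 6) and 40318 ± 3520 (SD, n = 5), an estimate of 0.00 (SE 0.08). Hsp90b1 (GRP94) and the lectin chaperone Canx had P9 estimates of 0.14 and 0.01. Calr, the other lectin chaperone, the J-domain proteins Dnajb9, Dnajb11 and Dnajc3, and the nucleotide exchange factor Hyou1 had estimates from -0.88 to -0.27 and edgeR adjusted p from 0.101 to 0.356. Set against Hspa5 within each library, which needs no scaling, P9 controls held 12.4 to 17.3 Sdf2l1 counts per 100 Hspa5 counts and P9 Isl1CKO 3.79 to 8.83, without overlap. For Ero1lb the same ranges were 31.2 to 56.5 and 4.10 to 12.4, also apart, while those of Creld2, Manf and Atf4 overlapped.

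**Figure D4:**
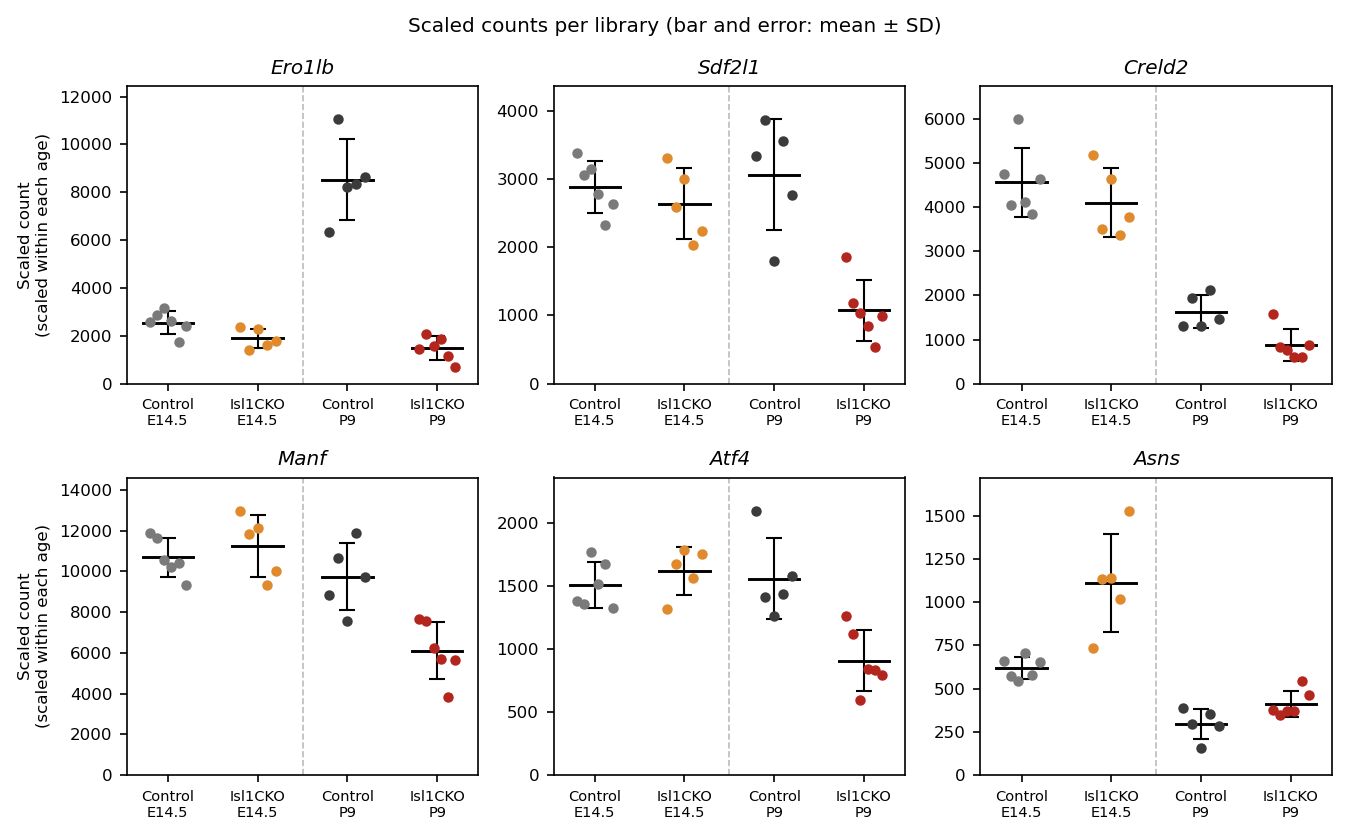
Scaled counts in each of the 22 libraries for the 6 genes that passed the test at either age; counts are scaled within an age, so heights are compared left or right of the dashed line only, and bars show mean ± SD. Ero1lb at P9 separates fully, 6320 to 11062 in controls against 697 to 2091 in Isl1CKO, and Asns at E14.5 separates in the other direction.

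In the translocation arm no gene passed edgeR's test with TMM over all libraries at either age. At an unadjusted p of that test under 0.05, 2 were higher at E14.5 and 2 higher and 1 lower at P9. Over all genes 5.50% were higher so at E14.5, and 9.43% higher and 7.99% lower at P9. DESeq2 called Spcs1 alone, at both ages, where it called 1.46% and 4.95% of all genes higher. With total counts edgeR called Spcs1, Spcs2, Ssr1, Ssr3 and Ssr4 higher at P9, where 27.3% of all genes were. It also called Spcs1 higher at E14.5 (adjusted p = 0.0333), where 113 of 15960 genes were. With totals without the hormone genes it called Sec61a1 lower at P9, where 457 of 13884 genes were. Spcs1, a small subunit of the signal peptidase, was at 3248, 3766, 3437, 3793 and 3997 scaled counts in P9 controls. In P9 Isl1CKO it was at 5616, 5414, 5102, 4605, 3645 and 5724. Isl1CKO library 5 lay among the controls and the other 5 above all of them, with a log2 fold change of 0.46 (SE 0.13, edgeR adjusted p = 0.0621); without library 5 it was 0.54 with adjusted p = 0.00837. At E14.5 it ran from 4661 to 6036 in controls (median 4841) and was 7001, 6084, 6443, 5597 and 5854 in Isl1CKO, an estimate of 0.31 (SE 0.08, edgeR adjusted p = 0.0887). Control library 1, at 6036, was the control that overlapped the Isl1CKO libraries there.

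Spcs2, another signal peptidase subunit, was at 8597 ± 1654 (SD, n = 5) against 7469 ± 1103 (SD, n = 6) at P9, with edgeR adjusted p = 0.543. The SEC61 channel genes Sec61a1, Sec61b and Sec61g had P9 estimates of -0.64, -0.27 and -0.24, with edgeR adjusted p of 0.0994, 0.538 and 0.639. The 4 translocon-associated protein genes went both ways, with P9 estimates of 0.26 for Ssr1, -0.28 for Ssr2, -0.07 for Ssr3 and 0.52 for Ssr4, whose edgeR adjusted p ran from 0.156 to 0.882. Sec11c, a catalytic signal peptidase subunit, was at -0.30 (edgeR adjusted p = 0.575).

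ER-associated degradation leaned lower at P9 without a call by edgeR with TMM. Of its 6 genes, 5 had negative P9 estimates, and those 5 had an unadjusted edgeR p under 0.05, where 7.99% of all genes were lower. DESeq2 called all 5 lower (Sel1l, Syvn1, Edem1, Derl1 and Derl3), where it called 4.16% of all genes lower. With RLE, another composition factor, edgeR called Sel1l lower (adjusted p = 0.0482). With totals without the hormone genes it called Sel1l, Edem1 and Derl1 lower (adjusted p = 0.0206, 0.0490 and 0.0356). With total counts the estimates of Sel1l and Derl1 turned, to 0.075 and 0.15. At E14.5 none of the 6 had an unadjusted p under 0.05, and DESeq2 called none. Sel1l, the adaptor of the ubiquitin ligase encoded by Syvn1, was at 1416, 1596, 1433, 1371 and 1222 scaled counts in P9 controls. In P9 Isl1CKO it was at 623, 956, 936, 820, 1039 and 1200. The groups did not overlap, yet the log2 fold change of -0.60 (SE 0.16) had an edgeR adjusted p = 0.0501, or 0.0449 and 0.0348 without Isl1CKO library 5 or 6. At E14.5 Sel1l ran from 1774 to 2344 in controls (median 1922) and was 1845, 1539, 2473, 2049 and 1613 in Isl1CKO (edgeR adjusted p = 0.935). Edem1, which picks misfolded glycoproteins for disposal, was at 876, 783, 611, 337 and 604 in P9 controls and at 244, 424, 370, 458, 418 and 351 in P9 Isl1CKO, a log2 fold change of -0.77 (SE 0.24, edgeR adjusted p = 0.0887). Control library 4, at 337, was the control inside the Isl1CKO range, and without it the adjusted p was 0.0292.

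Derl1, a channel component of this pathway, was at 635, 899, 879, 971 and 1016 scaled counts in P9 controls and at 588, 575, 652, 524, 577 and 759 in P9 Isl1CKO. Control library 1 overlapped the mutants; the log2 fold change was -0.52 (SE 0.17, edgeR adjusted p = 0.0897), and without that library it was -0.62 with adjusted p = 0.0465. Edem1 and Derl1 at E14.5 had edgeR adjusted p of 0.958 and 0.562. Syvn1 was at 316 ± 83.4 (SD, n = 5) and 173 ± 51.7 (SD, n = 6) at P9, and Derl3, a derlin of highly secretory cells, at 186 ± 80.3 and 45.6 ± 30.6; their edgeR adjusted p were 0.0931 and 0.101. Herpud1, a scaffold of the same complex, was at 1913, 3133, 2150, 3269 and 2344 in P9 controls and at 2191, 1612, 1557, 1410, 8481 and 3145 in P9 Isl1CKO. Isl1CKO library 5, at 8481, lay far above the rest, and the log2 fold change was 0.26 (SE 0.40, edgeR adjusted p = 0.824). Without that library its direction turned, to -0.37 with adjusted p = 0.441. Of a list of 4 plasma and B cell genes, that library held counts of Cd79a alone, at 1103 scaled counts, its highest value at P9, where the 5 controls held 209 to 402 of it. Its part in the result was not tested.

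Among the 5 sensor genes edgeR called none in its main fit, with TMM, all libraries and no block. At an unadjusted p of that fit under 0.05, 2 were higher at E14.5 and 1 higher and 1 lower at P9. DESeq2 called Ern1 higher at P9. Over all genes the unadjusted shares were 5.50% higher at E14.5, and 9.43% higher and 7.99% lower at P9. DESeq2 called 4.95% of all genes higher at P9. With total counts edgeR called Ern1 (1.71, adjusted p = 0.00141) and Atf6 higher at P9, where 27.3% of all genes were. With replicate number as a block it called Ern1 higher (0.93, adjusted p = 0.0401), where 179 of 13964 genes were. Ern1, which encodes IRE1, had the largest positive estimate of the list at P9. Its scaled counts were 274, 399, 367, 345 and 586 in P9 controls and 573, 652, 638, 576, 1494 and 817 in P9 Isl1CKO. Control library 5, at 586, overlapped the lowest mutants, and library 5 of the mutants was again far above the rest. The log2 fold change was 1.01 (SE 0.28, edgeR adjusted p = 0.0514); without Isl1CKO library 5 and control library 3, a choice made after seeing the data, it was 0.70 with adjusted p = 0.135. Without control library 5 or Isl1CKO library 1 the adjusted p was 0.0370 and 0.0472. At E14.5 Ern1 ran from 560 to 1045 in controls (median 720) and was 900, 929, 1027, 732 and 976 in Isl1CKO (edgeR adjusted p = 0.559). Xbp1, the substrate of IRE1, was at 2043 ± 371 (SD, n = 5) and 1389 ± 410 (SD, n = 6) at P9, an estimate of -0.56 (SE 0.20, edgeR adjusted p = 0.144); counts per gene do not show its splicing. Atf6, Eif2ak3 and Wfs1, the gene of Wolfram syndrome, had P9 estimates of 0.30, -0.47 and -0.34, with edgeR adjusted p of 0.461 to 0.514. At E14.5 all 5 estimates of this arm were above 0, from 0.02 to 0.37, with edgeR adjusted p from 0.263 to 0.970.

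The integrated stress response held one gene that rose and one that fell. Atf4, the transcription factor at its centre, was at 2095, 1412, 1259, 1437 and 1573 scaled counts in P9 controls. In P9 Isl1CKO it was at 1259, 1120, 595, 841, 830 and 794. The groups only touched at 1259, where the highest mutant library lay just under the lowest control, and the log2 fold change was -0.78 (SE 0.20, edgeR adjusted p = 0.0343). With 1 library left out the adjusted p ran from 0.0157 to 0.0898 and passed the threshold in 4 of 11 cases, those without control library 3 or without Isl1CKO library 1, 2 or 5. At E14.5 the values were 1323 to 1763 in controls (median 1449) and 1317, 1669, 1780, 1562 and 1754 in Isl1CKO (edgeR adjusted p = 0.781). The interaction was -0.88 (SE 0.23, edgeR adjusted p = 0.0439), but -0.26 with adjusted p = 0.471 under total counts and -0.85 with adjusted p = 0.0762 without a filter on low counts. With 1 library left out its adjusted p ran from 0.0128 to 0.0886 and passed the threshold in 5 of 22 cases, those without control library 3 of either age, without E14.5 Isl1CKO library 1, or without P9 Isl1CKO library 1 or 2.

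Asns, the asparagine synthetase gene and a direct target of ATF4, rose at E14.5. Its scaled counts were 662, 574, 543, 706, 579 and 655 in E14.5 controls and 738, 1134, 1141, 1017 and 1531 in E14.5 Isl1CKO. All 5 mutant libraries lay above all 6 controls, with a log2 fold change of 0.84 (SE 0.15, edgeR adjusted p = 0.0118). At P9 the controls held 389, 295, 157, 355 and 283 and the mutants from 347 to 543, with a median of 374, an estimate of 0.48 (SE 0.24, edgeR adjusted p = 0.343). Isl1CKO libraries 3, 4 and 5 at E14.5 held the highest macrophage sums of their group, 958, 1324 and 674 scaled counts over 7 markers, and without them, with 2 mutant libraries left, the estimate for Asns was 0.60 with adjusted p = 0.387. The same sums were 518 and 440 in Isl1CKO libraries 1 and 2 and 450 to 693 in controls, with none of the 7 at 0, and their part in the result was not tested.

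Ddit3, the gene of CHOP, was at 331, 233, 157, 345 and 114 scaled counts in P9 controls and at 97.7, 41.2, 8.62, 104, 95.8 and 45.5 in P9 Isl1CKO. These groups did not overlap, but the spread was wide, and the log2 fold change of -1.84 (SE 0.53) had an edgeR adjusted p = 0.0584, or 0.0487 with mutant library 3 left out. By DESeq2 it passed, with adjusted p = 0.0103. At E14.5 it ran from 159 to 282 in controls (median 220) and was 144, 286, 216, 199 and 213 in Isl1CKO (edgeR adjusted p = 0.962). Ppp1r15a, which encodes the eIF2α phosphatase subunit GADD34, was at -0.54 at P9 (edgeR adjusted p = 0.521). Chac1, a glutathione-degrading enzyme, and Trib3, a pseudokinase, were too sparse to compare: P9 libraries held 0.958 to 40.1 and 0 to 32.3 scaled counts.

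The interaction term, which sets the P9 effect against the E14.5 effect in 1 model over all 22 libraries, was tested for all 45 genes. It was called lower for Ero1lb, Sdf2l1 and Atf4 and higher for none, where 0.851% and 1.23% of 17265 genes were called lower and higher. At an unadjusted edgeR p under 0.05, 1 member was higher and 18 lower, where 8.72% and 6.39% of all genes were. DESeq2 called none higher and 8 lower, where it called 2.63% and 2.00% of 19947 genes. The members' median interaction was -0.37, with 35 of 45 below 0, where the median of all genes was 0.06 and 46.8% were below 0. With total counts 10 members were called higher and 1 lower, where 17.9% and 0.521% of all genes were and the median of all genes was 0.68. For the other 42 members a difference between the ages was not called.

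Summed over an arm, and taken as a share of the counts outside the hormone genes, the genotypes overlapped at both ages for the list as a whole. The whole list took 2.08 ± 0.0587% of these counts in E14.5 controls (SD, n = 6), 2.16 ± 0.154% in E14.5 Isl1CKO (SD, n = 5), 2.48 ± 0.391% in P9 controls (SD, n = 5) and 1.96 ± 0.227% in P9 Isl1CKO (SD, n = 6). At P9 the redox share was 0.543 ± 0.0924% and 0.387 ± 0.0534%, and the chaperone share 1.10 ± 0.188% and 0.828 ± 0.122%; both overlapped between the genotypes through control library 3. Of the 6 arms, the sensors at E14.5 alone did not overlap, at 0.0523 to 0.0573% in controls and 0.0586 to 0.0607% in Isl1CKO. Set against the hormones instead, the order turned. P9 controls held 1.82 to 2.28 counts of the 45 genes per 100 hormone counts and P9 Isl1CKO 4.78 to 11.6, and at E14.5 the ranges were 32.7 to 82.0 and 90.8 to 282. Neither pair overlapped, and the hormone total in the denominator was itself lower in Isl1CKO at both ages.

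**Figure D5:**
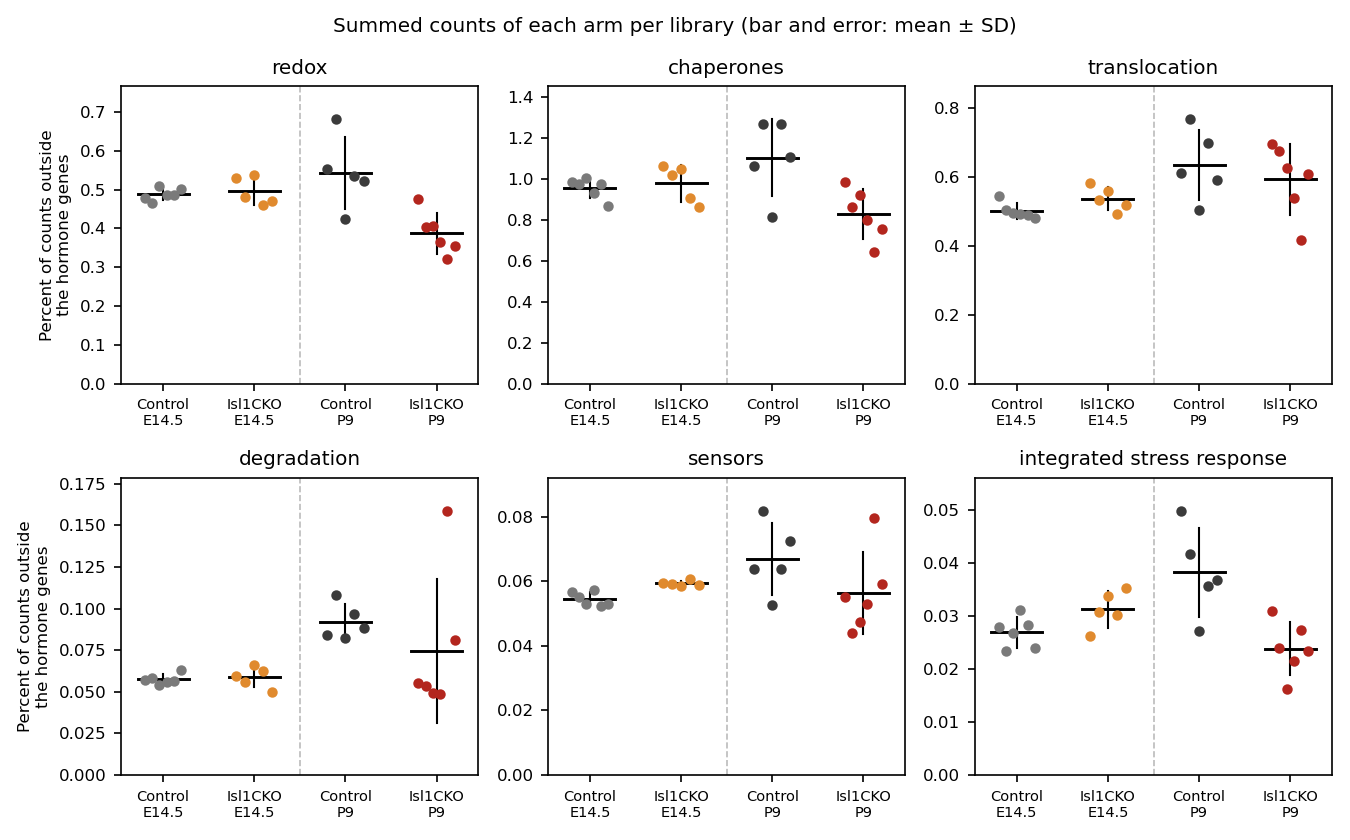
Summed counts of each of the 6 arms as a percent of counts outside the 8 hormone genes, per library, with mean ± SD. At P9 the redox shares centre on 0.543% in controls and 0.387% in Isl1CKO, and the single high point of the degradation panel is Isl1CKO library 5, at 0.159%.

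Levels per kilobase of exon, on 1 scale over all 22 libraries, order the genes within the cells. Hspa5 ranked first in each group, at 7555 ± 1753 scaled counts per kb in P9 controls (SD, n = 5). Sec61b and Pdia3 followed there at 5823 ± 728 and 4966 ± 1192, which overlap within 1 SD, and Trib3, Chac1 and Ero1l were lowest at 1.51, 12.0 and 42.1. Sdf2l1 ranked 5 of 45 in P9 controls, at 4059 ± 1082 per kb, close to P4hb at 4062 and Manf at 4055, and 16 in P9 Isl1CKO at 1425 ± 589 (SD, n = 6). Ero1lb went from rank 16 at 1880 ± 375 to rank 27 at 327 ± 111, where at E14.5 its ranks were 26 and 30. Exon lengths are from GENCODE M21, while the authors counted against annotation M8.

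Between the ages, many of these genes were higher in P9 control cells. In controls 23 of 45 genes were called higher at P9 and 4 lower (Ero1l, Pdia4, Sec61a1 and Ssr2), where 15.8% and 15.2% of 17265 genes were called. The members' median log2 difference was 0.46, beside -0.04 for all genes. With total counts the split was 3 higher (Dnajc3, Eif2ak3 and Ero1lb) and 29 lower, where 3.50% and 58.1% of all genes were, with medians of -0.72 for the members and -1.21 for all genes. Ero1lb rose most, from 1929 ± 368 to 12504 ± 2497 scaled counts on the common scale, a log2 difference of 2.70 (SE 0.22, edgeR adjusted p = 2.35e-09). Its paralogue Ero1l went from 393 ± 102 to 222 ± 91.9, a difference of -0.82 (SE 0.30, edgeR adjusted p = 0.0417).

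By arm, the smallest p among the redox genes that fell belonged to Pdia4, at -0.68 (SE 0.18). Dnajc3, the J-domain co-chaperone P58IPK, rose by 1.46 (SE 0.12) and Spcs2 by 0.82 (SE 0.11), while Ssr2 fell by 0.70 on the log2 scale (SE 0.19). Derl1 rose by 0.72 (SE 0.14), Eif2ak3, the PERK gene, by 1.93 (SE 0.30), and Atf4 by 1.01 (SE 0.16). Their edgeR adjusted p ran from 2.74e-09 to 0.00624. In the 4 arms where no gene was called lower, the negative estimates with the smallest p were those of Creld2 at -0.53 (edgeR adjusted p = 0.0537), Syvn1 at -0.34 (0.217), Xbp1 at -0.01 (0.963) and Trib3 at -1.46 (0.388). The 3 genes with a called interaction, Ero1lb, Sdf2l1 and Atf4, were each called higher at P9 in controls, and these comparisons share the control libraries.

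Members with and without an ERSE can be set side by side. The 10 members with an ERSE had a median P9 log2 fold change of -0.34, with 8 below 0 and 2 called lower (Creld2 and Ero1lb). The other 28 with a known promoter sequence, of which 27 were tested, had a median of -0.24, with 19 below 0 and also 2 called lower (Sdf2l1 and Atf4). With age in controls the medians were 0.13 and 0.49. Of the 4 members with the composite site, Asns rose at E14.5 and Herpud1 was not called at either age. Chac1 and Trib3 were too sparse to compare, and Trib3 was not tested at P9.

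A wider list of 113 other genes of the same pathways was tested too. At E14.5, at an unadjusted edgeR p under 0.05, 19 of 104 were higher and 3 lower, where 5.50% and 5.95% of all genes were. Of the estimates, 75 were above 0 and 29 below, with a median of 0.10. By adjusted p, 1 of 104 was called higher (0.962%) and none lower, where 0.602% and 0.827% of all genes were. That gene was Stc2, a secreted glycoprotein induced by PERK and ATF4, whose scaled counts averaged 245 ± 27.6 (SD, n = 6) in controls and 519 ± 77.8 (SD, n = 5) in the mutants, a rise of 1.08 on the log2 scale (SE 0.14, edgeR adjusted p = 0.00111). At P9 2 of 103 were called higher (1.94%) and 4 lower (3.88%), beside 2.66% and 2.14% of all genes, and the median was -0.10. Derl2, a derlin, fell from 1770 ± 170 (SD, n = 5) to 929 ± 144 (SD, n = 6), a log2 fold change of -0.93 (edgeR adjusted p = 0.00126). Wars, the tryptophanyl-tRNA synthetase gene and an ATF4 target, fell from 403 ± 89.9 to 122 ± 49.8, by 1.72 on the log2 scale (edgeR adjusted p = 0.00417), and Spcs3, a signal peptidase subunit, by 0.76 (edgeR adjusted p = 0.0317). Txndc12, a thioredoxin-like ER protein, and Erlec1, an ER lectin of the degradation pathway, rose by 0.72 and 0.61 (edgeR adjusted p = 0.0241 and 0.0463). Slc3a2, an amino acid transporter subunit, fell by 0.54 (edgeR adjusted p = 0.0481). For the interaction 7 of 108 (6.48%) were called, each of them lower, where 0.851% of all genes were: Wars, Atf3, Derl2, Edem2, Slc3a2, Ube2j1 and Spcs3. Among them Wars went from 877 ± 119 to 1012 ± 114 scaled counts between the genotypes at E14.5 and from 592 ± 132 to 180 ± 74.0 at P9, on the common scale. Atf3, on the same scale, averaged 7.89 in controls and 9.45 in Isl1CKO at E14.5. At P9 it was 73.2 ± 71.7 in controls and 2.26 ± 1.75 in Isl1CKO, so its counts were low and uneven. By age in controls 39 of 108 (36.1%) were called higher and 18 (16.7%) lower, beside 15.8% and 15.2% of all genes. These calls are with TMM over all libraries, and how they depend on the scaling was not tested for this wider list.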

How the data were processed

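RNA-seq reads of 22 libraries, each made from 100 sorted tdTomato+ cells, were processed by the authors. Per the labels and the study's methods, reads were trimmed with cutadapt 1.18 and Trimmomatic, cleared of ribosomal and vector reads with Bowtie 1.2.2 and SortMeRNA, mapped with STAR 2.7.0c to GRCm38.p6, and summarised per gene with Rsubread against GENCODE M8 without multi-mapped reads. The deposited values are raw counts per gene, 1 table per age, and hold no gene whose counts sum to under 10 within an age.

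From these counts, genotypes were compared within each age, and age and interaction over all 22 libraries, with edgeR 4.0.16 in R 4.3.3 (TMM scaling, filterByExpr, quasi-likelihood test, Benjamini-Hochberg adjustment over all genes tested, threshold 0.05). Standard errors are the absolute log2 fold change divided by the square root of F. A scaled count is the count divided by library size times TMM factor, times the mean of that product over the libraries fitted. DESeq2 1.42.0, other scalings, no filter, a replicate block, the study's fold threshold and leaving out libraries were tried as alternatives. The code was tested on simulated counts. Depth ran from 8477482 to 13580985 counts per library.

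The 45 genes, the marker lists and the list of 113 other genes were chosen with earlier results of these data known. Every library's value was printed for the members with an adjusted p under 0.05 in either genotype comparison or the interaction, with those of smallest p at P9 added up to 12; in each arm the member with the highest scaled count in P9 controls (Pdia3, Hspa5, Spcs2, Herpud1, Xbp1 and Atf4) was described too, and for age the members with the smallest p in each direction. P4hb, Derl3 and Syvn1 values beyond that rule were chosen after seeing the data. Promoter letters were matched in RefSeq sequences of GRCm38.p6, and exon lengths came from GENCODE M21, which held 27069 and 27449 of the gene IDs.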

Additional observations from a re-analysis of the deposited data

Results flagged for a closer look

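The effect of Isl1CKO differed between the ages for 3 genes in the interaction test over all 22 libraries: Ero1lb by -2.09 (edgeR adjusted p = 0.000386), Sdf2l1 by -1.38 (edgeR adjusted p = 0.0213) and Atf4 by -0.88 (edgeR adjusted p = 0.0439), on the log2 scale. With total counts the last 2 were -0.76 (adjusted p = 0.0634) and -0.26 (adjusted p = 0.471), and Atf4 was also not called without a filter on low counts (adjusted p = 0.0762).

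A single library stood apart from its group, by Dixon's criterion at the 95% level, in 19 of 180 combinations of gene and group, where chance gives about 1 in 20. In E14.5 control library 1, Dnajb9 at 4701, Ssr4 at 5401 and Spcs1 at 6036 scaled counts were high, and Hyou1 at 404 was low. In E14.5 control library 6, Prdx4 at 697 was high and Ssr3 at 5360 low. Among the other E14.5 controls, Wfs1 was high in library 2 at 845, Sec61g high in library 4 at 772, and Derl3 low in library 5 at 136. In E14.5 Isl1CKO, Hspa5 was low in library 5 at 34267, Spcs2 high in library 4 at 9453, and Derl3 low in library 2 at 137. In P9 controls, P4hb was high in library 2 at 9946. In P9 Isl1CKO library 5, Herpud1 at 8481 and Ern1 at 1494 were high and Sec61g at 269.97 was low, against group medians of 1901, 645 and 484. In P9 Isl1CKO library 3, Canx at 11314 and Atf6 at 1006 were high, and in library 1 Creld2 was high at 1579. The cause of these values was not tested.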

How the results depend on the processing

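Ero1lb and Sdf2l1 were called lower at P9 under every alternative run, each left-out library included, and the ratio of Ero1lb to Ero1l kept its direction and its side of the threshold throughout; it ran from -0.81 to -0.57 at E14.5 and from -2.40 to -1.89 at P9 with 1 library left out. No gene called with TMM for genotype or for the interaction turned direction. Estimates that were not called did: with total counts at P9 Sel1l went from -0.60 to 0.075 and Derl1 from -0.52 to 0.15. For age in controls, calls did turn. Atf6, Canx, Derl1, Manf, P4hb, Sec61g, Sel1l, Spcs1, Spcs2, Ssr1 and Ssr3 were called higher at P9 with TMM and lower with total counts. At E14.5 estimates near 0 crossed it: without Isl1CKO libraries 3, 4 and 5 those of Sdf2l1 (0.034), Atf4 (-0.0054) and Edem1 (0.085), with the replicate block Edem1 (0.023), and with 1 library left out Sel1l (-0.16 to 0.020), Ddit3 (-0.19 to 0.058) and Edem1 (-0.13 to 0.027). The counts of called members moved as follows. At E14.5, where 1 was higher, 3 were higher with DESeq2 and 3 with total counts, 0 with the replicate block, 0 without Isl1CKO libraries 3, 4 and 5, and 1 to 2 with 1 library left out. At P9, higher and lower calls were 2 and 12 with DESeq2, 15 and 2 with total counts, 0 and 10 with totals without the hormone genes, 0 and 2 without a filter on low counts, 1 and 3 with the replicate block, 0 and 2 with the study's fold threshold, 1 and 4 without Isl1CKO library 5 and control library 3 (chosen after seeing the data), and 0 to 2 and 2 to 5 with 1 library left out. For the interaction, lower calls were 8 with DESeq2, 1 with total counts (and 10 higher), 7 with totals without the hormone genes, and 2 to 6 with 1 library left out. For age in controls, total counts gave 3 higher and 29 lower, the fold threshold 0 lower, and left-out libraries 21 to 25 higher and 2 to 6 lower. Over all genes, higher and lower calls were 96 and 132 at E14.5 and 372 and 299 at P9. With DESeq2 they were 294 and 359 and 911 and 766, and with the replicate block 57 and 77 and 179 and 154. At P9 they were 285 and 457 of 13884 with totals without the hormone genes, and 281 and 229 of 27504 without the filter. They were 306 and 185 with the study's fold threshold, and 347 and 261 of 14078 without Isl1CKO library 5 and control library 3. At E14.5 they were 113 and 124 with total counts, and 19 and 23 without Isl1CKO libraries 3, 4 and 5. For the interaction, totals without the hormone genes gave 163 and 235 of 17575 genes. For age, the fold threshold gave 1977 and 1198. With total counts the split of members' calls turned, at P9, by age and for the interaction, along with the median of all genes, and otherwise the cause was not tested.

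Libraries with the same replicate number did not deviate together (correlations of -0.052 to 0.056, and most libraries matched another number better). The numbers thus gave no sign of pairing, though such correlations could miss one, and the block served only as an alternative. Under the replicate block 0 members were called at E14.5, 1 higher and 3 lower at P9, and 2 lower for the interaction, where Atf4 had an edgeR adjusted p = 0.0507. It was not run for age, because the numbers are nested within age. Depth limits Trib3, Chac1 and Derl3, whose scaled counts were near 0 in some libraries.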
